A study of Mus musculus with 2 samples.

Results

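The miR-34/miR-449 family is a group of 6 microRNA genes at 3 places in the mouse genome. Mir449a, Mir449b and Mir449c form 1 cluster, Mir34b and Mir34c form another, and Mir34a stands alone. The genes were taken by name, through the match of gene identifiers to GENCODE M21, and all 6 were among the 1973 genes counted. They were measured by microRNA sequencing of total RNA from the hindbrain, from which the cerebellum, pons and medulla develop. The tissue came from B6NCrl embryos of both sexes at embryonic day 16.5, labelled healthy, with no treatment or mutation given. There was 1 group of 2 biological replicates, each a pool of embryos. The labels give 37 embryos for replicate 2 and no number for replicate 1. With 1 group, no comparison between conditions was possible.

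MicroRNAs guide silencing proteins to messenger RNAs, mainly through the seed, the bases 2 to 8 from the 5′ end. Members of the miR-34/miR-449 family share a seed and are best known from multiciliated cells, which carry many motile cilia and line the airways, the oviduct, the efferent ducts of the testis and the brain ventricles. In mice, loss of both the Mir449 and the Mir34b/c clusters impairs the formation of these cilia, and the centriolar protein gene Ccp110 is a known target. Mir34a is better known as a direct target of p53, the tumour suppressor that responds to DNA damage, and Mir34b and Mir34c also respond to p53. In the hindbrain, the choroid plexus of the fourth ventricle is a multiciliated epithelium that makes cerebrospinal fluid.

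The mature sequences below are those of the arm that carries the family seed. They are RefSeq entries on build GRCm38.p6 and show what makes these genes 1 family. Capitals mark the seed, and Mir449b and miR-34c-5p are named without a sequence.
miR-449a-5p: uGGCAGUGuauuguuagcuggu
miR-449c-5p: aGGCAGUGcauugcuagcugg
miR-34b-5p: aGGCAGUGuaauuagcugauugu
miR-34a-5p: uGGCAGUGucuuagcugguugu

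Those 4 were the only entries with GGCAGUG at bases 2 to 8 among 1738 mature mouse entries in the table, a share of 0.230%. No mature entry was available for miR-34c-5p or Mir449b, so this count leaves both out. A search for the longest stretch that these 4 sequences share after the seed gave the 6 bases UAGCUG. That all 4 hold it was thus fixed by the search. Among the 1738 entries, 19 held it (1.09%, searched on the strand of the mature RNA). This stretch began at base 12 in miR-34a-5p, base 13 in miR-34b-5p and base 15 in miR-449a-5p and miR-449c-5p. Counted from the 5′ end, miR-449a-5p and miR-449c-5p had the same base at 18 of 21 positions, while miR-449a-5p and miR-34a-5p had the same base at 15 of 22. None of the 4 sequences was found in another of the 1005 hairpin entries. The 3p sequences did not share a single seed. Those of Mir34b and Mir34c did share one, AUCACUA, which no other entry held at bases 2 to 8.

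The hairpins of Mir449a and Mir449c, and those of Mir34c and Mir34b, are shown because the read counts within each pair were far apart. No hairpin entry was available for Mir449b, the remaining member of its cluster. Capitals mark the single match to GGCAGUG in each hairpin shown.
Mir449a hairpin: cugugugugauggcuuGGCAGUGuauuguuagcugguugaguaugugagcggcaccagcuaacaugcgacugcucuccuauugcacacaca
Mir449c hairpin: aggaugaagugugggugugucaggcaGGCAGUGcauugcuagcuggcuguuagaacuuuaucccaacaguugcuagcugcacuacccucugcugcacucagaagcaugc
Mir34c hairpin: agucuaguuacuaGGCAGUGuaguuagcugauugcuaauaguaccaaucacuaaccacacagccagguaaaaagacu
Mir34b hairpin: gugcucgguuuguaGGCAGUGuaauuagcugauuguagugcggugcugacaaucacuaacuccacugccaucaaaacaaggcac

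Mir449a (ENSMUSG00000065575.1) lies at chr13:113037534-113037624 on the plus strand (mm10). Mir449b (ENSMUSG00000078027.1, chr13:113037419-113037498) and Mir449c (ENSMUSG00000076146.1, chr13:113035983-113036091) lie upstream of it on the same strand. All 3 sit in introns of Cdc20b, a protein-coding gene read in the same direction, in each of the 5 Cdc20b transcripts that span them. In the direction of reading, Mir449c came first, Mir449b followed after a gap of 1327 bases, and Mir449a after a further 35 bases. Mir34b (ENSMUSG00000065492.1, chr9:51103562-51103645) and Mir34c (ENSMUSG00000065587.1, chr9:51103034-51103110) lie on the minus strand, with Mir34b first and a gap of 451 bases before Mir34c. Both are inside an intron of 1 Btg4 transcript that runs the opposite way. Mir34a (ENSMUSG00000065493.1, chr4:150068454-150068555) lies on the plus strand and its last 17 bases fall in the exon of Gm37795, an unclassified transcript on the same strand.

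Replicate 1 held 5097205 sense counts, which are reads on the annotated strand of a counted gene, and replicate 2 held 4460836. Levels are given as CPM, sense counts scaled to 1000000 per library. Each read stands for 1 short RNA, so levels were not divided by length, and ratios per hairpin length are given beside the main ratios. Intervals are exact binomial intervals at 95% for each library and cover counting error only, not the spread between libraries. The reads carry no molecular identifiers. Detection required 10 or more counts in each library, which 385 of the 1973 genes reached (19.5%).

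All 6 family members were detected, with most of the reads at Mir449a and Mir34c. The family held 32262 sense counts in replicate 1 and 27810 in replicate 2, a share of 0.628% ± 0.00672 of all sense counts (SD, n = 2). In replicate 1 the interval ran from 0.626% to 0.640%, and in replicate 2 from 0.616% to 0.631%. Mir449a and Mir34c made up 61.6% ± 4.17 and 34.7% ± 3.64 of the family's counts (SD, n = 2), Mir34a 2.48% ± 0.531 and Mir34b 1.19% ± 0.0161. The counts at a hairpin do not separate its 5p from its 3p arm.

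Mir449a had 20811 counts in replicate 1 and 16301 in replicate 2, or 4083 CPM (interval 4028 to 4139) and 3654 CPM (3598 to 3711). Its mean of 3869 ± 303 CPM (SD, n = 2) placed it at rank 46 of the 1973 genes. Mir449b, 35 bases upstream, had 14 counts in each library, 2.75 CPM (1.50 to 4.61) in replicate 1 and 3.14 CPM (1.72 to 5.27) in replicate 2. Mir449c had 13 counts in each, 2.55 CPM (1.36 to 4.36) and 2.91 CPM (1.55 to 4.98), so that 1 of the 3 hairpins of the Cdc20b intron carried nearly all of its reads. In a library of this depth, the limit that a count of 0 allows is 3 counts, or 0.589 CPM for replicate 1 and 0.673 CPM for replicate 2.

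Mir34c had 10355 counts in replicate 1 and 10358 in replicate 2, or 2032 CPM (1993 to 2071) and 2322 CPM (2278 to 2367). Its mean of 2177 ± 205 CPM (SD, n = 2) placed it at rank 72. Mir34b, the first hairpin of that cluster, had 389 counts in replicate 1 and 329 in replicate 2, 76.3 CPM (68.9 to 84.3) and 73.8 CPM (66.0 to 82.2). Its mean was 75.0 ± 1.81 CPM (SD, n = 2) at rank 234, and its range did not overlap that of Mir34c. Mir34a, the member linked most closely to p53, had 680 and 795 counts in replicates 1 and 2, which is 133 CPM (124 to 144) and 178 CPM (166 to 191). Mir34a averaged 156 ± 31.7 CPM (SD, n = 2) at rank 189, above Mir34b and far below Mir34c in both libraries.

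**Figure D1:**
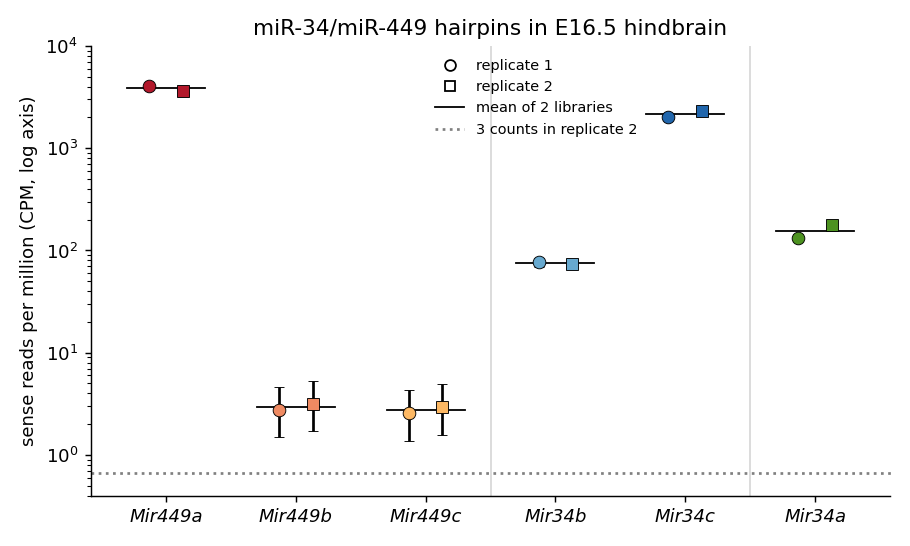
Level of each member in CPM on a log axis, with circles for replicate 1, squares for replicate 2, exact binomial 95% intervals as error bars and a line at the mean. Mir449a at 4083 and 3654 CPM and Mir34c at 2032 and 2322 CPM stand above Mir34a and Mir34b, and Mir449b and Mir449c lie at about 3 CPM, above the dotted line at 3 counts.

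The order of the members by level was Mir449a, Mir34c, Mir34a, Mir34b, Mir449b and Mir449c in both libraries. Of the neighbours in this order, Mir449b and Mir449c were not distinguishable at this depth: 14 against 13 counts gave a log2 ratio of 0.11 in each library, with an interval from -1.09 to 1.32. With 2 libraries the smallest p of an exact sign-flip test is 0.5, so a ratio was called different when both libraries gave the same sign and the mean was larger than 2 SD. All 15 ratios of members or loci met this rule. The Mir449b and Mir449c pair, which entered in both directions, met it only because each hairpin had the same count in both libraries. For the other ratios the counting interval also left out equality in both libraries.

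Within the clusters the partners were far apart. Mir449a exceeded Mir449b 1486-fold in replicate 1 and 1164-fold in replicate 2, a mean log2 ratio of 10.36 ± 0.25 (SD, n = 2), and exceeded Mir449c by 10.47 ± 0.25. With 14 counts at Mir449b, the counting interval of its ratio ran from 9.79 to 11.41 in replicate 1 and from 9.44 to 11.06 in replicate 2 on the log2 scale. Mir34c exceeded Mir34b 26.6-fold in replicate 1 and 31.5-fold in replicate 2, a mean log2 ratio of 4.86 ± 0.17 (SD, n = 2). Per hairpin length the mean log2 ratios were 10.18 for Mir449a over Mir449b, 10.73 for Mir449a over Mir449c and 4.98 for Mir34c over Mir34b. In each cluster the last hairpin in the direction of reading held the most reads.

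**Figure D2:**
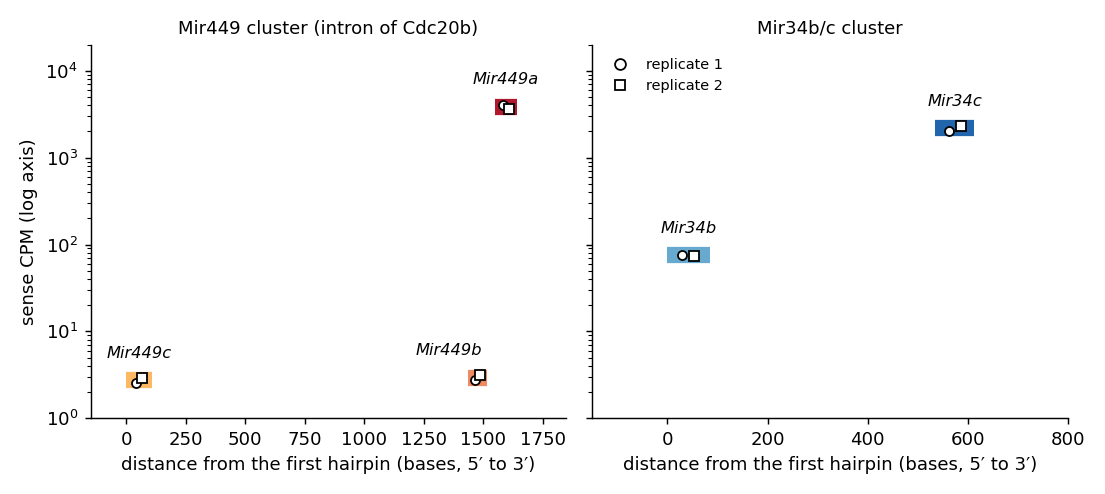
Hairpins of the Mir449 cluster (left) and the Mir34b/c cluster (right), drawn to scale by distance in bases from the first hairpin in the direction of reading, against CPM on a log axis. Bars span each hairpin at its mean level, and circles and squares are replicates 1 and 2. Mir449b and Mir449a lie 35 bases apart and differ 1486-fold in replicate 1 and 1164-fold in replicate 2.

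Between loci, the Mir449 cluster led, followed by the Mir34b/c cluster and then Mir34a. The summed level was 3874 ± 302 CPM for the Mir449 cluster, 2252 ± 204 CPM for the Mir34b/c cluster and 156 ± 31.7 CPM for Mir34a (SD, n = 2). The Mir449 cluster exceeded the Mir34b/c cluster 1.94-fold in replicate 1 and 1.53-fold in replicate 2, a mean log2 ratio of 0.78 ± 0.24, and 0.55 per hairpin length. It exceeded Mir34a by a mean log2 ratio of 4.65 ± 0.41, and the Mir34b/c cluster exceeded Mir34a by 3.87 ± 0.17 (SD, n = 2). Both clusters stood above Mir34a, 30.6-fold and 20.5-fold in replicates 1 and 2 for Mir449 and 15.8-fold and 13.4-fold for Mir34b/c. Each lead rested on 1 hairpin, Mir449a or Mir34c, while Mir34b, Mir449b and Mir449c lay below Mir34a in both libraries. In bulk tissue, fewer cells of a type and less RNA per cell cannot be told apart, so these levels do not say in which or how many cells each locus was read. Ciliated cell markers such as Foxj1 are messenger RNAs and were not measured by this assay.

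In the whole profile, the family's members ranged from rank 46 to rank 384. Mir449a lay next to Mir181a-1 (4192 ± 489 CPM) above and Mir139 (3731 ± 0.720 CPM) below. Mir34c lay between Mir433 (2177 ± 474 CPM) and Mir125b-2 (2156 ± 22.7 CPM). Mir34a had Mir32 (157 ± 15.1 CPM) above and Mir592 (155 ± 14.7 CPM) below, and Mir34b had Mir345 (75.7 ± 4.41 CPM) and Mir194-2 (74.7 ± 15.6 CPM; SD, n = 2 for all). Each of these 4 members overlapped at least 1 of its neighbours in the range of its 2 libraries, so their exact ranks are not fixed by the data. In replicates 1 and 2, 34.5% and 35.1% of reads fitted several places and were added to no gene. Genes with copies at other loci can thus rank too low, and the family's members too high. Mir449b at rank 376 and Mir449c at rank 384 were at the edge of detection, beside Mir6979, Mir491, Mir1b and Mir741 with 10 to 17 counts per library.

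**Figure D3:**
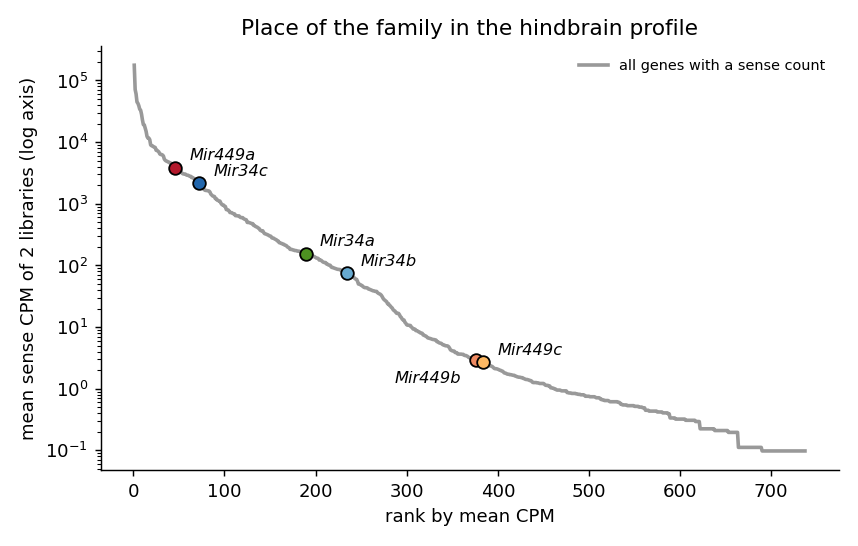
Mean CPM of all genes with a sense count against their rank, with a log axis for CPM, and the 6 members as coloured points. Mir449a at rank 46 and Mir34c at rank 72 lie in the upper part of the curve, and Mir449b and Mir449c at ranks 376 and 384 lie near the limit of 10 counts.

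The family's share was close in the libraries, while its makeup differed by more than counting error. The intervals leave out the spread between pools, which 1 library on each side cannot give. Mir449a made up 64.5% of the family's counts in replicate 1 (exact interval 64.0% to 65.0%) and 58.6% in replicate 2 (58.0% to 59.2%). Mir34c made up 32.1% in replicate 1 (31.6% to 32.6%) and 37.2% in replicate 2 (36.7% to 37.8%), and Mir34a 2.11% (1.95% to 2.27%) and 2.86% (2.67% to 3.06%). Mir34b stayed at 1.21% and 1.18%, with overlapping intervals. The log2 ratio of the Mir449 cluster over the Mir34b/c cluster was 0.96 (interval 0.92 to 0.99) in replicate 1 and 0.61 (0.58 to 0.65) in replicate 2, a ratio that does not depend on the library total.

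**Figure D4:**
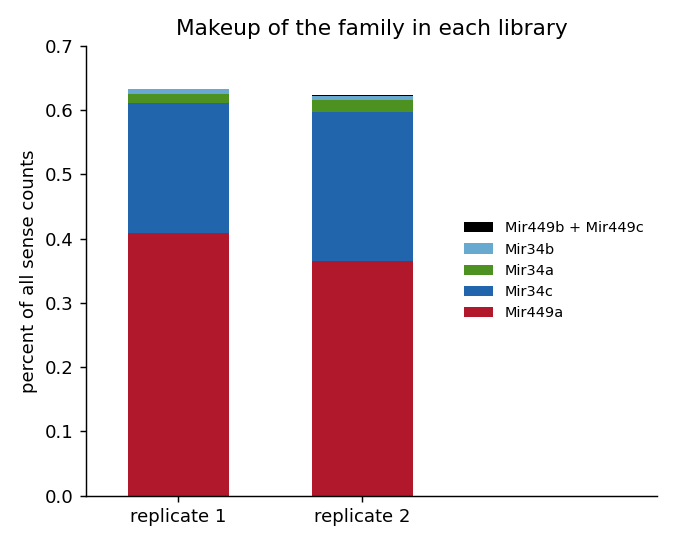
Share of all sense counts held by each member in replicates 1 and 2, stacked from 0. The bars reach 0.633% and 0.623%, and Mir449a takes 0.408% in replicate 1 and 0.365% in replicate 2, while Mir34c takes 0.203% and 0.232%.

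Gene by gene, 3 of the 6 members differed between the libraries beyond counting noise, 1 higher in replicate 1 and 2 higher in replicate 2. The exact two-sided binomial test at TMM-scaled totals with Benjamini-Hochberg adjustment compares these libraries, not conditions, and it called 46.4% of the 401 genes tested, 24.4% higher in replicate 1 and 21.9% higher in replicate 2. A count of 3 in 6 is therefore near the background. On the log2 scale, replicate 1 over replicate 2, Mir449a gave 0.10 (interval 0.07 to 0.13, adjusted p = 1.35e-09), Mir34c -0.26 (-0.30 to -0.22, adjusted p = 8.66e-37) and Mir34a -0.48 (-0.63 to -0.33, adjusted p = 8.26e-10). Mir34b gave -0.02 (-0.23 to 0.20), Mir449b -0.26 (-1.44 to 0.92) and Mir449c -0.26 (-1.49 to 0.97), and these 3 did not pass. The median over the members was -0.26, the value of Mir34c, Mir449b and Mir449c, against 0.00287 over all genes tested, and the summed counts of the family gave -0.04 (-0.07 to -0.02). With plain totals the same 3 members were called, and 131 genes were higher in replicate 1 and 62 in replicate 2, in place of 98 and 88. When edgeR's exact test was run with an assumed biological coefficient of variation of 0.1, it called 0 of the 6 members (adjusted p = 1.00 for Mir449a, 0.860 for Mir34c and 0.424 for Mir34a) and 7 of 401 genes. From these libraries edgeR's common dispersion gave a coefficient of 16.2% over the genes tested, larger than the assumed one. Of the members, Mir34a alone had an unadjusted p under 0.05 by that test.

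**Figure D5:**
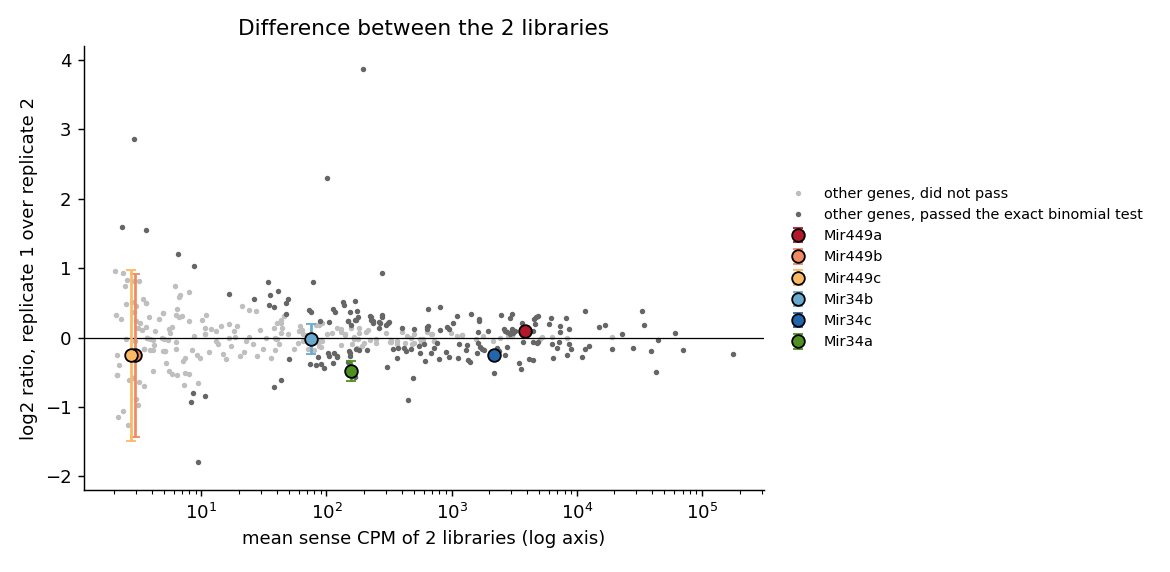
Log2 ratio of replicate 1 over replicate 2 after TMM scaling against mean CPM on a log axis, for the 401 genes tested (grey, darker where the exact binomial test was passed) and the 6 members with exact 95% intervals. Mir449a at 0.10 lies above 0, Mir34c at -0.26 and Mir34a at -0.48 lie below it, and all 6 lie inside the cloud of other genes.

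The libraries also differed in microRNAs of other tissues, and the part of these in the family's values was not tested. Mir204, a choroid plexus microRNA in an intron of Trpm3, had 3106 CPM in replicate 1 and 4070 CPM in replicate 2 (log2 ratio -0.46), and its paralogue Mir211 had 6.28 and 5.38 CPM (0.16, adjusted p = 0.862 by the exact binomial test). The choroid plexus pair thus held 0.311% and 0.408% of the counts in replicates 1 and 2. Mir34c and Mir34a, with log2 ratios of -0.26 and -0.48, were higher in the same library as Mir204, and Mir449a in the other. Mir34b, Mir449b and Mir449c did not pass the exact binomial test. Mir449a over Mir204 gave 0.40 (0.37 to 0.42) in replicate 1 and -0.16 (-0.19 to -0.13) in replicate 2 on the log2 scale, so the order of these microRNAs changed between the libraries. Mir34c stayed below Mir204 in both, with -0.61 and -0.81. These pairs with Mir204 were chosen after their values were seen.

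The epithelial list had 7 microRNAs and includes the miR-200 family of airway and other epithelia. Of the 7, 3 were higher in replicate 1 (Mir200c, Mir429 and Mir205) and 0 in replicate 2, beside 24.4% and 21.9% of all genes. The median log2 ratio of the list was 0.39, against 0.003 over all genes tested. The list held 0.0813% and 0.0703% of the counts. Among the miR-200 family, Mir200c and Mir429 had 44.0 and 100 CPM in replicate 1 and 24.2 and 54.7 CPM in replicate 2. Mir200a, Mir200b and Mir141 did not pass, with 5.69, 27.7 and 8.83 CPM in replicate 1 and 4.26, 20.2 and 7.17 CPM in replicate 2. All 5 were below Mir449a and Mir34c in both libraries. Mir203, known from skin epithelium, was the most abundant of the list at 570.7 CPM in replicate 1 and 554.6 CPM in replicate 2 and did not pass the test. Of 5 counted skeletal muscle microRNAs, Mir1a-1, Mir133a-1 and Mir133a-2 were at 0 counts. MicroRNAs of these names come from more than 1 locus, and reads that fit several places were added to no gene. The 0 counts therefore do not show absence, and the list's share leaves such reads out. The 2 tested, Mir206 and Mir133b, were both higher in replicate 1, beside 24.4% of all genes, and the list held 0.0375% and 0.00249%. The 3 erythroid microRNAs held 0.0216% and 0.0207%, with 1 higher in each library, beside 24.4% and 21.9% of all genes. Mir122 of hepatocytes had 41.0 and 41.9 CPM, and the endothelial Mir126a 27475 and 29178 CPM, higher in replicate 2 by 0.15 on the log2 scale. Of 10 counted members of the hindbrain and neural list, 7 were detected, led by the Hox-cluster Mir10a at 60429 ± 3641 CPM (SD, n = 2), and the list held 11.4% of the counts in replicate 1 and 9.79% in replicate 2. Of the 7 tested, 3 were higher in replicate 1 and 2 in replicate 2, beside 24.4% and 21.9% of all genes. Mir9-2, Mir124a-2 and Mir124a-3 had at most 11 counts in either library. Mir124a-1 had 22 counts in replicate 1 and 13 in replicate 2, and Mir9-3 had 2474 and 2082. Other loci share the mature sequences of these genes, and the part of this in their counts was not tested.

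Among 9 other microRNAs linked to p53, 8 were detected, of which 2 were called higher in replicate 1, 3 in replicate 2, beside 24.4% and 21.9% of all genes, and the median log2 ratio was -0.07 over the 8 tested. They ranged from 1.70 CPM for Mir194-1 to 7155 ± 19.6 CPM for Mir143, a microRNA of smooth muscle and pericytes. Mir194-1 and Mir194-2 are loci of the same microRNA, and reads that fitted both were added to neither. The levels of both can thus be too low, also beside Mir34a, and the part of this was not tested. Mir107, in an intron of Pank1, had 2370 ± 155 CPM, and Mir192, a known p53 target, 86.0 ± 0.108 CPM (SD, n = 2). Mir34a at 133 and 178 CPM in replicates 1 and 2 lay above Mir192, Mir194-2 and Mir215 and below Mir107 and Mir143 in both libraries. Mir145a, the partner of Mir143, had 108 and 120 CPM and was lower than Mir34a in each.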

How the data were processed

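MicroRNA libraries of 2 hindbrain pools were sequenced, and 1 table per library was deposited. It holds the authors' raw read counts per gene, made on mm10 with GENCODE M4, per the text file of each sample. No aligner or counter is named in the sources used here. The tables give 3 columns of counts, for either strand and for each strand alone, and 4 summary lines that name no gene and stayed out of all totals. The first single-strand column was taken as the sense count. Of all reads in replicates 1 and 2, 15.5% and 15.2% were unmapped, 34.5% and 35.1% fitted several places, and 2.60% and 2.78% lay outside counted genes. Multimapping reads appear only as that total, so none were added to a gene. At most 2 counts per library lay on the opposite strand of any member.

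Gene identifiers, with the version removed, were looked up in GENCODE M21 (GRCm38, the assembly of mm10), and 1894 of 1973 matched. Sequences came from RefSeq entries on GRCm38.p6. Exact binomial intervals at 95% and the limit of 3 counts for a count of 0 cover counting error only. The libraries were compared by an exact binomial test at TMM-scaled totals over the 401 genes with 20 or more counts in all, with Benjamini-Hochberg adjustment at 0.05. The binomial test was also run on simulated counts with counting noise only, at plain totals. That run cannot show how the test behaves where libraries differ by more than counting noise. edgeR's quasi-likelihood test was not used, since there is 1 group. Named genes are the 6 members, the counted members of 8 marker lists, and the gene directly above and below each member in mean CPM. The members and lists were chosen with earlier results of these data known. Alternatives were unstranded counts, TMM and DESeq2 scaling, other totals and count minimums, a pseudocount of 0.5, counts per hairpin length, leaving out either replicate, and an edgeR exact test that assumed a biological coefficient of variation of 0.1. The software was DESeq2 1.42.0 and edgeR 4.0.16 in R 4.3.3, and scipy 1.17.1, numpy 2.4.6, matplotlib 3.10.9 and pandas 2.3.3 in Python 3.11.15.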

Additional observations from a re-analysis of the deposited data

How the results depend on the processing

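The levels depend on the total they are set against. Without the most abundant gene in the total, the family's share was 0.763% and the mean levels were 4696 CPM for Mir449a, 2647 for Mir34c, 189.6 for Mir34a, 91.1 for Mir34b, 3.58 for Mir449b and 3.32 for Mir449c. With multimapping reads added to the total, the share was 0.358% and the levels 2205, 1240, 88.7, 42.8, 1.68 and 1.56 CPM in the same order. With unstranded counts the share was 0.613%. Under TMM, DESeq2 size factors and the count filter, the share and all 6 levels moved by less than 1 SD. With 2 libraries, the value of either replicate alone always lies within 1 SD of the mean. Leaving out a replicate therefore could not test the share or the levels. The 7 planned log2 ratios kept their direction under unstranded counts, division by hairpin length, a pseudocount of 0.5 and either replicate alone. That of Mir449c over Mir449b, -0.11 in each library, lay within counting error throughout.

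The count of genes that differed between the libraries fell to 7 with edgeR's exact test at an assumed coefficient of variation of 0.1, which allows for more than counting noise, and none of the 6 members was among them. The ratio of Mir34b, replicate 1 over replicate 2, changed sign to 0.049 with plain totals and to 0.001 with DESeq2 size factors, within counting error in each case. No paired analysis was possible because there is 1 group. Depth limits Mir449b and Mir449c most, with 13 or 14 counts per library.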
